A study of Mus musculus with 8 samples.

Results

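The genes described here are 10 that build or mark a simple epithelium: the keratins Krt7, Krt8, Krt18 and Krt19, the desmosomal genes Dsp and Dsc2, and the surface or secretory-pathway genes Cdh3, Cdcp1, Cd40 and Furin. They were taken by name, through the GENCODE symbol of each Ensembl gene, and are 10 of the 37620 genes in the count files. All 10 had at least 10 counts in at least 2 libraries and so were among the 16961 genes tested.

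RNA-seq was read in 8 libraries of mouse embryonic stem cells (mESCs) and their derivatives, and expression is given as counts-per-million of a library's gene counts (CPM). The study placed mESCs under combinations of signalling inputs to ask which cell states each input would favour. Of these, 5 came from R1, an mESC line, kept in serum-containing medium without feeder cells. All 5 received 2i, which is CHIR99021 (a GSK3 inhibitor, 3 µM) with PD0325901 (a MEK inhibitor, 1 µM), and the labels name no LIF. The group 2i (day 5) had no other input, and the group 2iJ (day 5) also received a JAK inhibitor (2 µM). The group 2iJ+B-A received 2iJ with BMP4 (10 ng/ml) and an ALK5 inhibitor (10 µM), and was collected on days 2, 5 and 11. The study used that inhibitor to block signalling by Activin and Nodal. The sorted group is 1 library of CDX2-GFP cells, another line, which carry a green fluorescent reporter of CDX2 and were sorted as positive after 2 days in 2iJ+B-A. The mesoderm group is a library of R1 progenitors on day 3 and another on day 4. By the study's methods these formed as embryoid bodies in another medium with BMP4, Activin A and Wnt3a, and the day 4 cells had also met an inhibitor of Wnt secretion.

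Libraries held between 19810855 counts (sorted) and 31453888 counts (2iJ+B-A day 5). The sorted library stood apart in quality measures, with 29.70% of its read pairs unmapped and 27.84% of its uniquely mapped pairs outside genes, against at most 3.85% and 13.21% in the others. Its Cdx2 level was 234 CPM, against at most 30.1 CPM in unsorted 2iJ+B-A cells, and the mesoderm markers summed to 1390 and 1003 CPM in the mesoderm libraries against 7.75 to 57.0 CPM elsewhere. The groups 2i, 2iJ and sorted had 1 library each. The spread within 2iJ+B-A (n = 3) and mesoderm (n = 2) is between days, and nothing says that the libraries came from separate cultures, so the p-values measure only the spread between these libraries. The sample codes begin with a different letter for mesoderm, sorted and the other mESC libraries, and a batch that followed them cannot be told apart from the groups.

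Keratins form filaments as obligate pairs of a type II and a type I chain, and Krt8 with Krt18 is the first such pair made in the mouse embryo, in the trophectoderm, the outer epithelium of the blastocyst. Krt7 and Krt19 join that network in trophoblast and other simple epithelia, and Krt8, Krt18 and Krt19 are also made in primitive endoderm. Desmosomes fasten keratin filaments to the membrane: Dsp encodes desmoplakin, the linker to the filaments, and Dsc2 encodes desmocollin 2, a desmosomal cadherin.

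Krt7 (chr15:101241474-101260744), Krt8 (chr15:101827142-101834773) and Krt18 (chr15:101858647-101862457) lie on 1 chromosome of the NCBIM37 build. Krt8 and Krt18, though of opposite keratin type, point away from each other with starts 23874 bases apart. Other keratins on this stretch were nearly silent: of the 20 keratin genes between Krt7 and Krt8, none passed 0.584 CPM in any library. Krt19 (chr11:100002124-100009979) lies in the type I cluster. Dsp (chr13:38243197-38290446), Cdh3 (chr8:109034791-109080808), Cdcp1 (chr9:123079942-123125156), Cd40 (chr2:164881127-164898448) and Furin (chr7:87533471-87550322) are each elsewhere.

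The 250 bases before the RefSeq start of Krt8 and of Krt18 are shown because these genes moved together through the 8 libraries. The windows are chr15:101834774-101835023 on the minus strand and chr15:101858397-101858646 on the plus strand of NCBIM37, found there by an exact match of the RefSeq letters given for GRCm38.p6. Capitals mark matches to 6 short motifs searched on both strands.
Krt8: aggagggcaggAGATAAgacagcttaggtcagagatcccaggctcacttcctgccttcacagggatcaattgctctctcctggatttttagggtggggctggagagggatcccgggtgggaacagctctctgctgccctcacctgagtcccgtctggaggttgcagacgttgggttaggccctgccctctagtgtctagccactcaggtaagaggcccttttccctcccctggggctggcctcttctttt
Krt18: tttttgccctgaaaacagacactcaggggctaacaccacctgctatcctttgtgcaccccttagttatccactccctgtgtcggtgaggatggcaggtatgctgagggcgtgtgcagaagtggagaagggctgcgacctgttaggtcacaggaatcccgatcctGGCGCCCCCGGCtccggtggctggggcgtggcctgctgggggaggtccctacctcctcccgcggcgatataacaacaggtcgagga

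The Krt8 window held 1 match, to the GATA motif (AGATAA), 239 bases before the start. The Krt18 window held a match to the SMAD motif (GGCGCC) 86 bases before the start and an overlapping match to the AP-2 motif (GCCNNNGGC) at 83 bases, and shared none with Krt8. Among 32851 RefSeq promoter windows of this length, 10.0% held the GATA motif, 9.6% the SMAD motif and 13.7% the AP-2 motif. Neither window held the TEAD (GGAATG, 12.6%), CDX (TTTATNG, 9.8%) or SP/KLF (GGGCGG, 32.7%) letters. Of the 6 members with such a window (Krt7, Krt8, Krt18, Dsp, Cdcp1 and Furin), 4 held the SP/KLF motif, 3 the AP-2 motif, 2 the SMAD motif, 1 the GATA motif, 1 the CDX motif and 0 the TEAD motif.

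Reads of Krt8 and Krt18 can be shared with processed copies. A copy of the whole Krt8 coding sequence (1474 aligned bases, 97.7% identical) lies at chr7:24142144-24143601 inside Nlrp4e, a gene with at most 9 counts in any library. A shorter Krt8 match (543 bases, 89.0%) lies at chr8:86415671-86416201 in Gm16994, which had at most 15 counts. Krt18 has a full-length copy at chr13:118246641-118247882 (90.4%) and a partial one on chromosome 1 (86.5%), neither inside an annotated gene. Read pairs that fit a gene and its copy equally were not counted, so the Krt8 level may be understated in every library. No copy of 300 bases or more at 85% identity was found for the other 8 genes.

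The 4 keratins together took 17.4 CPM in 2i and 34.2 CPM in 2iJ. In 2iJ+B-A they took 403, 1240 and 592 CPM on days 2, 5 and 11, and in the sorted cells 3461 CPM, which is 0.346% of all gene counts. The mesoderm libraries of days 3 and 4 held 625 and 309 CPM. Thus the sum was lowest without BMP4 and the ALK5 inhibitor, and highest in the CDX2-GFP-positive cells.

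**Figure D1:**
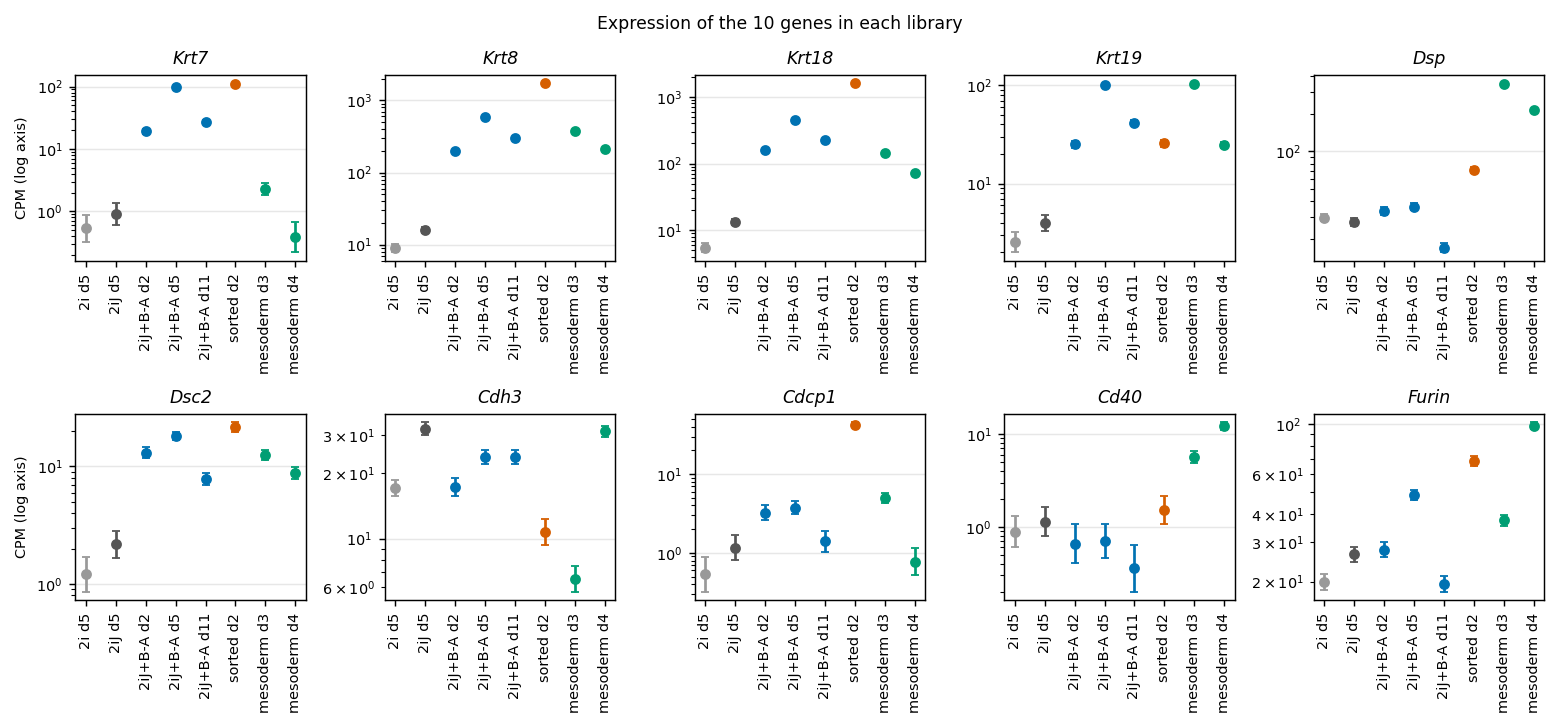
Expression of each of the 10 genes in the 8 libraries, in CPM on a log axis whose range differs between panels, with bars for the 95% Wilson interval of the counts (d, day). Krt7, Krt8, Krt18 and Krt19 are lowest or near lowest in 2i and 2iJ, whereas Dsp and Cd40 are highest in the mesoderm libraries.

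Krt8, the type II chain of the early embryonic pair, was at 8.88 CPM in 2i and 16.2 CPM in 2iJ. It was at 198, 594 and 301 CPM on days 2, 5 and 11 of 2iJ+B-A, at 1731 CPM in the sorted cells, and at 376 and 213 CPM in mesoderm on days 3 and 4. All 3 2iJ+B-A libraries lay above 2i and 2iJ, and the sorted library lay above every other. Mesoderm overlapped with 2iJ+B-A.

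Krt18, its type I partner, was at 5.47 CPM in 2i and 13.2 CPM in 2iJ. It was at 160, 448 and 223 CPM on days 2, 5 and 11 of 2iJ+B-A, at 1595 CPM in the sorted cells, and at 145 and 71.7 CPM in mesoderm on days 3 and 4. Krt18 was the only member for which no neighbours in the order of the 5 groups overlapped, with sorted above 2iJ+B-A, then mesoderm, 2iJ and 2i.

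Krt7, a type II keratin of trophoblast and of ducts, was at 0.533 CPM in 2i (15 counts) and 0.895 CPM in 2iJ (23 counts). It was at 19.2, 98.3 and 27.2 CPM on days 2, 5 and 11 of 2iJ+B-A and at 109 CPM in the sorted cells. In mesoderm it was at 2.29 CPM on day 3 and 0.388 CPM on day 4, the lowest of the 8 libraries. The sorted level was close to that of unsorted cells on day 5, and the mesoderm values overlapped with 2iJ when counting error was added.

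Krt19, a small type I keratin of simple epithelia, had another order. It was at 2.52 CPM in 2i, 3.97 CPM in 2iJ and 25.0, 99.8 and 41.5 CPM on days 2, 5 and 11 of 2iJ+B-A. The sorted library, at 25.6 CPM, did not exceed the unsorted cells, and mesoderm on day 3 was as high as any library at 102 CPM, with 24.7 CPM on day 4. On the same day 2, the ratio of sorted to unsorted 2iJ+B-A was 1.02 for Krt19 (95% counting interval 0.907 to 1.15), against 8.74 for Krt8 (8.48 to 9.003), 9.94 for Krt18 (9.62 to 10.3) and 5.69 for Krt7 (5.15 to 6.30). These intervals cover counting error between single libraries of different lines and are no test of the groups.

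Levels were also set against each other per kb of exon, which allows genes to be compared. The ratio of Krt8 to Krt18 on that scale was 1.26 in 2i, 0.95 in 2iJ, 0.958, 1.03 and 1.05 in 2iJ+B-A on days 2, 5 and 11, and 0.842 in the sorted cells. It was 2.01 and 2.3 in mesoderm on days 3 and 4, outside the range of the other 6 libraries. The ratio of Krt19 to Krt18 per kb was 0.0121 in the sorted cells, 0.118 to 0.168 in 2iJ+B-A, 0.227 to 0.348 in 2iJ and 2i, and 0.531 and 0.26 in mesoderm on days 3 and 4. Sorted cells thus held the least Krt19 relative to Krt18. Krt7 was left out of these ratios because its annotated exons add up to 7049 bases, against 1400 to 1855 for the other 3 keratins, and a level per kb would depend on that annotation.

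**Figure D2:**
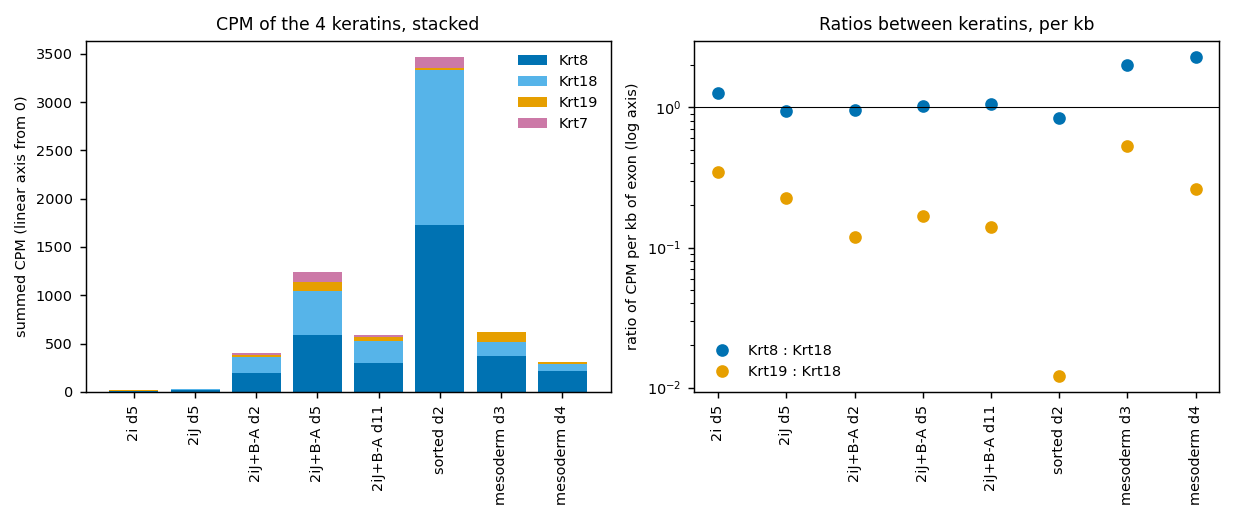
Left, CPM of Krt8, Krt18, Krt19 and Krt7 stacked for each library on a linear axis from 0. Right, the ratio of Krt8 to Krt18 and of Krt19 to Krt18 in CPM per kb of exon on a log axis, with a line at 1. The ratio of Krt8 to Krt18 is highest in the mesoderm libraries (2.01 and 2.3), and Krt19 is lowest against Krt18 in the sorted library (0.0121).

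Dsp did not follow the keratins it anchors. Desmoplakin RNA was at 29.5 CPM in 2i, 27.2 CPM in 2iJ and 33.5, 36.2 and 17.0 CPM on days 2, 5 and 11 of 2iJ+B-A, so these mESC groups overlapped. It was at 71.0 CPM in the sorted cells and at 346 and 212 CPM in mesoderm on days 3 and 4, above all mESC libraries. Dsp overlaps Gm10129 on the other strand, and the counts used here are by strand.

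Dsc2 was at 1.21 CPM in 2i and 2.18 CPM in 2iJ. It was at 13.1, 18.1 and 7.81 CPM on days 2, 5 and 11 of 2iJ+B-A, at 21.5 CPM in the sorted cells, and at 12.4 and 8.79 CPM in mesoderm. The sorted library overlapped with 2iJ+B-A when counting error was added but lay above mesoderm, mesoderm overlapped with 2iJ+B-A, and all lay above 2i and 2iJ.

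Cdh3 encodes P-cadherin, a classical cadherin of placenta and epidermis. It was at 17.1 CPM in 2i, 32.0 CPM in 2iJ and 17.4, 23.8 and 23.7 CPM on days 2, 5 and 11 of 2iJ+B-A. The sorted cells held 10.8 CPM, below the other mESC libraries. The mesoderm libraries were far apart, at 6.55 CPM on day 3 and 31.1 CPM on day 4, a ratio of 4.75 (95% counting interval 4.08 to 5.55).

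Cdcp1 encodes a transmembrane protein with CUB domains that is a substrate of Src kinases. It was at 0.533 CPM in 2i (15 counts) and 1.17 CPM in 2iJ (30 counts). It was at 3.22, 3.75 and 1.40 CPM on days 2, 5 and 11 of 2iJ+B-A (79, 118 and 43 counts). The sorted cells stood apart at 42.5 CPM, and mesoderm held 4.99 CPM on day 3 and 0.775 CPM on day 4. On day 2 the ratio of sorted to unsorted 2iJ+B-A was 13.2 (95% counting interval 10.5 to 16.9), the highest of the 10 genes.

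Cd40 encodes a receptor of the TNF receptor family, best known from antigen-presenting cells. It was low in mESCs, at 0.888 CPM in 2i (25 counts), 1.13 CPM in 2iJ (29 counts) and 0.652, 0.699 and 0.358 CPM on days 2, 5 and 11 of 2iJ+B-A (16, 22 and 11 counts). The sorted cells held 1.51 CPM (30 counts) and mesoderm 5.66 and 12.1 CPM on days 3 and 4. The gene of its ligand, Cd40lg, had 0 counts in all 8 libraries, which allows up to 0.095 to 0.151 CPM.

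Furin encodes a proprotein convertase that cleaves, among others, precursors of BMP4 and Nodal. It was present throughout, at 19.9 CPM in 2i, 26.4 CPM in 2iJ, 27.7, 48.4 and 19.6 CPM on days 2, 5 and 11 of 2iJ+B-A, 68.8 CPM in the sorted cells, and 37.4 and 98.4 CPM in mesoderm on days 3 and 4. Mesoderm day 4 was the highest library and mesoderm day 3 lay within the range of 2iJ+B-A.

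The first comparison asks what the JAK inhibitor added to 2i, in 1 library of each. Values in 2iJ were higher for 9 of the 10 genes, a count for which the share of all genes was not taken. The rise was within counting error for Krt7 (ratio of 2iJ to 2i 1.68, counting interval 0.84 to 3.46) and Cd40 (1.27, 0.72 to 2.26). The fall of Dsp was also within it (0.92, 0.83 to 1.02), and the intervals of the other genes lay above 1. Fitted log2 fold changes ran from -0.13 for Dsp to 1.26 for Krt18, with a median of 0.78 against 0.02 over all genes tested. A log2 fold change of 1 or more was fitted for 2 members, Krt18 and Cdcp1 (30 counts against 15), and for 6.34% of genes. The pair has no replicate of its own, and the joint fit borrows its spread from the other groups. By edgeR 0 genes passed an adjusted p-value of 0.05 (86 had an unadjusted p-value below it), and DESeq2 also called 0.

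The second comparison asks what BMP4 with the ALK5 inhibitor added to 2iJ. In the edgeR fit, log2 fold changes were 5.67 ± 1.58 (SE) for Krt7, 4.42 ± 0.78 for Krt8, 4.32 ± 0.79 for Krt18, 3.73 ± 1.19 for Krt19 and 2.51 ± 0.62 for Dsc2, with 3 libraries against 1. The values of the other 5 were 1.19 for Cdcp1, 0.20 for Furin, 0.02 for Dsp, -0.63 for Cdh3 and -1.05 for Cd40. The median over the members was 1.85 and over all genes 0.03. On day 5 alone the ratio of 2iJ+B-A to 2iJ was 110 for Krt7, 36.8 for Krt8, 33.9 for Krt18, 25.1 for Krt19 and 8.3 for Dsc2. It was 3.2 for Cdcp1, 1.8 for Furin, 1.3 for Dsp, 0.74 for Cdh3 and 0.62 for Cd40.

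None of these passed in edgeR, whose adjusted p-values were 0.343 for Krt8 and Krt18, 0.443 for Dsc2, 0.488 for Krt7 and 0.540 for Krt19. The test called 0 of 16961 genes (0%), with 1290 at an unadjusted p-value below 0.05. Of these, 679 were higher (4%), and they included the same 5 members. The DESeq2 Wald test called 305 genes, of which 182 were higher (1.24% of the 14659 with an adjusted p-value). It called 5 members higher: Krt8 (adjusted p = 1.36e-10 by DESeq2), Krt18 (1.00e-09), Krt19 (0.00224), Dsc2 (0.00405) and Krt7 (0.00857). With 2i and 2iJ pooled as the reference, edgeR called 58 genes higher (0.342%) and 92 lower, and those higher included Krt8 (adjusted p = 0.0368), Krt18 (0.0379) and Dsc2 (0.0478). The call thus rests on the choice of test or reference, whereas the order of the values does not. In 6 members (Krt7, Krt8, Krt18, Krt19, Dsc2 and Cdcp1) all 3 2iJ+B-A libraries lay above both 2i and 2iJ, as they did for 26.5% of genes. For Cdcp1 this order was within counting error on day 11 (ratio to 2iJ 1.20, counting interval 0.735 to 1.98).

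**Figure D3:**
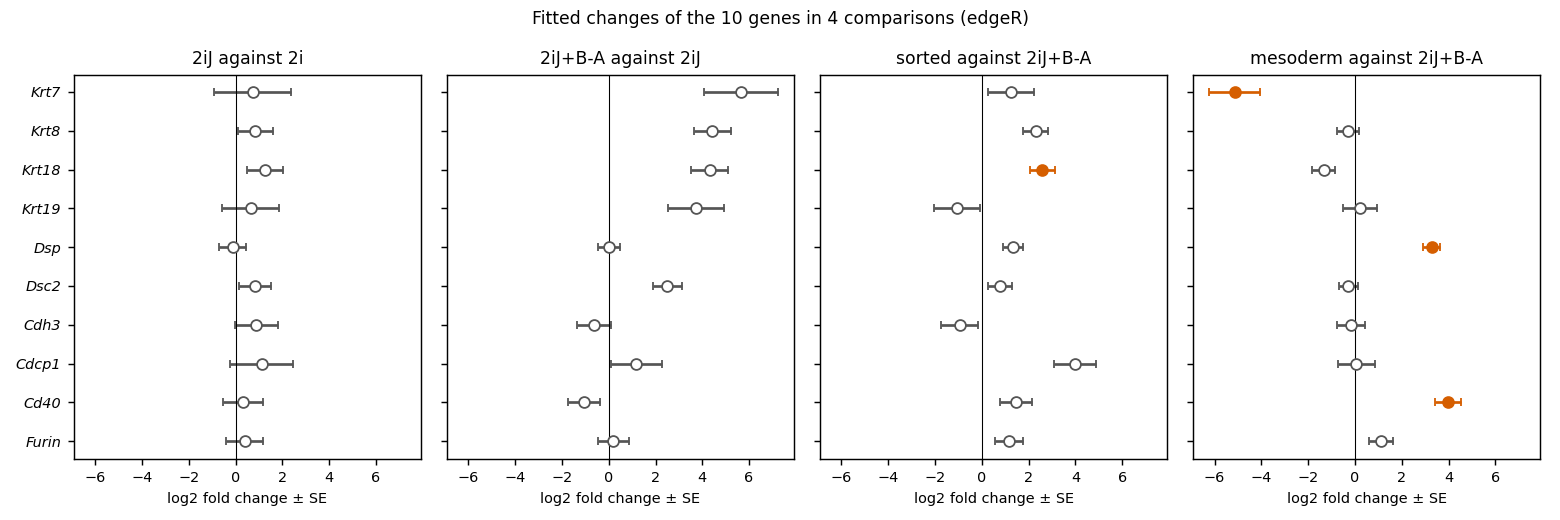
Log2 fold change of each gene with its SE in the 4 comparisons, from the joint edgeR fit, with filled points for an adjusted p-value below 0.05 and open points otherwise. The keratins and Dsc2 lie right of 0 in 2iJ+B-A against 2iJ without passing, and 4 points pass: Krt18 in sorted, and Krt7, Dsp and Cd40 in mesoderm.

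All 10 members were highest on day 5 among the 3 days of 2iJ+B-A, as were 32.4% of genes. The ratio of day 5 to day 2 in single libraries was 5.12 for Krt7 (95% counting interval 4.65 to 5.65), 3.99 for Krt19 (3.66 to 4.35), 3.00 for Krt8 (2.90 to 3.09) and 2.79 for Krt18 (2.69 to 2.89). For Dsp (1.08, 0.987 to 1.18), Cdcp1 (1.17, 0.869 to 1.57) and Cd40 (1.07, 0.538 to 2.19) the interval included 1, and Cdh3 on days 5 and 11 also differed by less than counting error (0.995, 0.897 to 1.10). By day 11 Krt8 was at 0.507 and Krt18 at 0.497 of their day 5 levels, and Krt7 was at 0.276. Each day is 1 library, so change with time has no replicate check.

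Markers of other cell types moved over the same libraries. The 18 trophectoderm markers summed to 176 CPM in 2i and 244 CPM in 2iJ, and to 1093, 1304 and 596 CPM on days 2, 5 and 11 of 2iJ+B-A. The 15 primitive endoderm markers summed to 325 and 380 CPM in 2i and 2iJ, and to 601, 1487 and 4441 CPM on those days. In mesoderm on days 3 and 4 the trophectoderm markers summed to 580 and 802 CPM. Of these sums Eomes made up 392.5 CPM on day 3 and Hand1 540 CPM on day 4. The endoderm markers summed to 1056 and 1306 CPM in mesoderm. Of these lists 0 of 18 and 0 of 15 passed in edgeR for 2iJ+B-A against 2iJ, with medians of 1.88 and 2.46, and none was at 0 in any mESC library. Elf5, a trophectoderm marker, was at only 0.117 to 0.909 CPM in the mESC libraries. Within 2iJ+B-A the keratin sum was highest on day 5, as was that of trophectoderm markers, and the endoderm sum was highest on day 11. In bulk libraries fewer cells of a type and less RNA per cell cannot be told apart, and the part of these markers in the keratin levels was not tested.

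**Figure D4:**
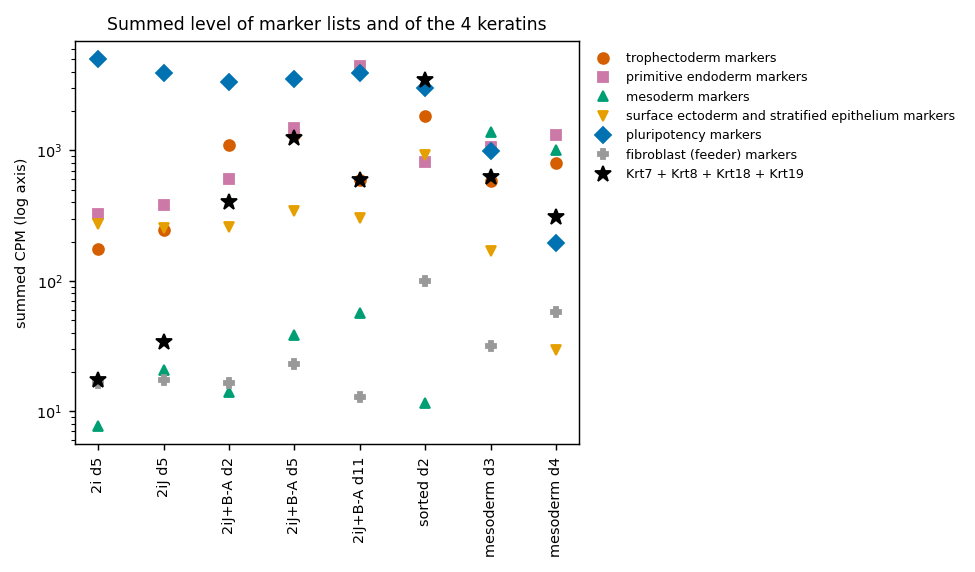
Summed CPM of 6 marker lists and of the 4 keratins in each library, on a log axis. The keratin sum (stars) and that of trophectoderm markers are highest in the sorted library (3461 and 1833 CPM), and primitive endoderm markers are highest on day 11 of 2iJ+B-A (4441 CPM).

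The third comparison sets the CDX2-GFP-positive cells against unsorted 2iJ+B-A cells, 1 library against 3. Krt18 was higher in the sorted cells by 2.59 ± 0.54 (log2, SE) and passed in edgeR (adjusted p = 0.0484). It was the 1 member called, where 3.34% of genes were called higher and 2.08% lower. Krt8 (2.31 ± 0.53, adjusted p = 0.0595 by edgeR) and Cdcp1 (3.98 ± 0.89, 0.0559) lay just beyond the threshold, and DESeq2 called both (0.0012 and 0.000851) as well as Krt18 (0.000255) and Dsp (0.0365). DESeq2 called many more genes here than edgeR, 1199 higher (7.66% of 15645) and 1498 lower.

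The fitted values of the remaining members ran from -1.05 for Krt19 and -0.95 for Cdh3 to 1.46 for Cd40, with Dsp at 1.35, Krt7 at 1.24, Furin at 1.17 and Dsc2 at 0.78, and none had an edgeR adjusted p-value below 0.111. The median over the members was 1.30, against -0.08 over all genes. In 5 members (Krt7, Krt8, Krt18, Dsc2 and Cdcp1) the sorted library was above the other 7, as it was for 23.1% of genes. The Krt18 call did not hold without any 1 of the 3 unsorted libraries (edgeR adjusted p = 0.0987 without day 2, 0.0815 without day 5 and 0.122 without day 11), nor with a slope on log2 of the day (0.159) or library totals alone (0.056). Without both mesoderm libraries edgeR called Krt18 (0.0245), Krt8 (0.0354) and Cdcp1 (0.0117) higher, and the calls over all genes also grew, to 1126 higher (6.84%) and 907 lower.

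The sort, the cell line and the quality of the library changed together in this comparison and cannot be told apart. Culture day differed as well, because the sorted library was of day 2 and the unsorted libraries also covered later days. The fitted values of this comparison therefore also carry any change with day. Trophectoderm markers summed to 1833 CPM in the sorted cells, with a list median of 1.15. Cdx2, whose reporter the cells were sorted on, was called higher by edgeR, as were Tead4 and Plet1 of the other 17, and 0 were called lower. These 3 of 18 stand beside 3.34% of all genes called higher. Elf5 was at 0.909 CPM, against 0.260 to 0.530 CPM in 2iJ+B-A, and Eomes at 2.675 CPM, against 2.571 to 4.158 CPM there. Neither gene was called, and Eomes was at 18.97 CPM in 2i. Rhox6 (-2.14 ± 0.71, edgeR adjusted p = 0.120) and Rhox9 (-2.60 ± 0.80, 0.103) had values below 0 and did not pass. Primitive endoderm markers summed to 811 CPM, of which Sparc made up 574 CPM. Their median against days 2, 5 and 11 of 2iJ+B-A was -2.67, and 0 of 15 passed. Of the defining genes, Gata4 was at 0.757 CPM, Sox17 at 1.16 CPM and Foxa2 at the floor of 0.151 CPM, whereas Gata6 was at 32.8 CPM. Unsorted 2iJ+B-A cells of the same day 2 had a lower sum, 601 CPM, with Sparc at 268 CPM. In those cells Gata4 was at 5.18 CPM, Sox17 at 1.06 CPM, Foxa2 at 0.448 CPM and Gata6 at 3.67 CPM. The 8 fibroblast markers summed to 99.5 CPM against 12.8 to 23.0 CPM in the other mESC libraries, with Col1a1 and Col3a1 called higher and Dcn at 1.72 CPM. Others of that list did not rise. Pdgfrb was at 5.81 CPM, against 4.75 to 10.1 CPM in the other mESC libraries, and Twist2 at 0.202 CPM, against 0 to 0.254 CPM. The 15 surface ectoderm and stratified epithelium markers summed to 919 CPM against 254 to 343 CPM in the other mESC libraries, with a median of 1.53 and 0 called. Elf3 (457 CPM), Klf5 (154 CPM) and Grhl2 (102 CPM) had the highest mean levels of that list over the libraries and stood at these values in the sorted cells. Trp63 was at 2.27 CPM, its highest of the 8 libraries, and Krt5 and Krt17 were at 0. Of 8 pluripotency markers 2 were called lower in the sorted cells by edgeR and 0 higher, beside 2.08% and 3.34% of all genes. They were Sox2 (-2.29 ± 0.30, edgeR adjusted p = 0.0194, 110 CPM against 514 to 597 CPM in 2iJ+B-A) and Esrrb (-1.39 ± 0.29, 0.0478, 101.2 CPM against 240 to 296 CPM). The list median was -0.16. Fitted values were below 0 for Zfp42 (-1.27) and Nanog (-0.39), and above 0 for Tfcp2l1 (1.30), Klf4 (0.78), Tbx3 (0.27) and Pou5f1 (0.07). The part of these markers in the sorted values was not tested.

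The fourth comparison sets the mesoderm progenitors against 2iJ+B-A, 2 libraries against 3. Dsp was higher by 3.28 ± 0.37 (log2, SE; 9.73-fold, edgeR adjusted p = 0.00328) and Cd40 by 3.97 ± 0.56 (15.7-fold, 0.00603). Krt7 was lower by 35.4-fold (log2 fold change -5.15 ± 1.10, edgeR adjusted p = 0.0190). These 2 of 10 called higher and 1 of 10 called lower compare with 11.5% and 15.5% of all genes.

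Krt8 (-0.29 ± 0.47), Krt19 (0.21 ± 0.72), Dsc2 (-0.28 ± 0.42), Cdh3 (-0.18 ± 0.60) and Cdcp1 (0.05 ± 0.79) gave values within 1 SE of 0. Krt18 (-1.34 ± 0.49, edgeR adjusted p = 0.0911) and Furin (1.11 ± 0.50, 0.148) did not pass, and DESeq2 called Krt18 lower (0.0168), with 18% of genes called lower. The median of the members was -0.06, against -0.03 over all genes.

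The days of mesoderm differed for most members. Day 3 was above day 4 in 7 of the 10 (Krt7, Krt8, Krt18, Krt19, Dsp, Dsc2 and Cdcp1), as in 49% of genes, and Cdh3, Cd40 and Furin were higher on day 4. Cdh3 without day 3 was at 0.60 (edgeR adjusted p = 0.158) and without day 4 at -1.67 (0.0227, with 11.1% of genes called lower), and Furin without day 3 passed (1.71, 0.0341, with 12.7% called higher). The calls of Dsp, Cd40 and Krt7 held without any 1 of the 5 libraries compared.

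Partners of the members were read from fixed lists. Of 46 other keratin genes 10 were tested, 7 had 0 counts in all libraries and 1 reached 10 CPM (Krt15, a basal epithelial keratin, 10.9 CPM in mesoderm day 4). In the sorted comparison edgeR called 1 of the 10 tested lower (Krt222) and 0 higher, beside 2.08% and 3.34% of all genes. In mesoderm it called 0 of the other keratins. Their summed level was 7.49 to 23.7 CPM.

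Of 15 desmosome partners 10 were tested. Dsg2, the desmoglein of simple epithelia and the partner of Dsc2, was called higher in the sorted cells (1.16 ± 0.18, edgeR adjusted p = 0.0288) and lower in mesoderm (-0.70 ± 0.16, 0.0219). Ppl, a plakin like desmoplakin, was also lower in mesoderm (-3.09 ± 0.91, 0.0498). No other was called in either comparison, and the medians were 1.13 in sorted, -0.18 in mesoderm and 0.61 in 2iJ+B-A against 2iJ. These 2 of 10 lower and 0 of 10 higher in mesoderm stand beside 15.5% and 11.5% of all genes. The 1 of 10 higher in the sorted cells stands beside 3.34%.

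Of 18 adherens and tight junction genes, edgeR called Ctnna1 (alpha-catenin, 1.05 ± 0.21) higher in the sorted cells. In mesoderm Cdh2, which encodes N-cadherin, was higher (4.42 ± 0.40) and Cldn4, a tight junction claudin, was lower (-2.92 ± 0.84). Cldn4 was at 815 CPM in the sorted cells, 82.2 to 154 CPM in 2iJ+B-A and 29.2 and 3.52 CPM in mesoderm. Among 8 other intermediate filament genes, Lmna (lamins A and C) was called higher in the sorted cells (3.86 ± 0.39) and Vim, the vimentin of mesenchymal cells, higher in mesoderm (3.09 ± 0.49). Medians of these lists were 1.45 and -0.07 in sorted and -0.86 and -0.16 in mesoderm. In the sorted cells 1 of 18 and 1 of 8 called higher stand beside 3.34% of all genes. In mesoderm 1 of 18 and 1 of 8 called higher stand beside 11.5%, and 1 of 18 and 0 of 8 called lower beside 15.5%.

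Of 8 other proprotein convertases 7 were tested. Pcsk6 (PACE4), which shares substrates with Furin, was lower in mesoderm (-4.75 ± 0.50, edgeR adjusted p = 0.00279), at 6.64 and 2.26 CPM against 100.6 to 133 CPM in 2iJ+B-A. Pcsk1 was also lower there, and Pcsk5 was higher. In the sorted cells Mbtps1 was called lower (-1.13 ± 0.19), as were 2.08% of all genes. Of 14 genes of CD40 signalling 13 were tested, and Traf2 (0.81 ± 0.21), an adaptor, and Nfkb1 (1.81 ± 0.23), an NF-kB subunit, were higher in mesoderm, with 0 called in the other comparisons. In mesoderm the 2 of 13 genes of CD40 signalling called higher stand beside 11.5% of all genes. The 2 of 7 convertases called lower stand beside 15.5%. The list medians in mesoderm were 0.15 for the convertases and 0.21 for CD40 signalling.

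Across the 8 libraries the correlation of log2 CPM was 0.979 between Krt8 and Krt18, 0.970 between Krt8 and Dsc2, 0.846 between Krt8 and Krt19 and 0.742 between Krt8 and Krt7. Krt8 and Dsp had 0.332, and Dsp was closest to Cd40 (0.930). Cdh3 had negative coefficients with all 9 others (-0.0251 to -0.615). These are descriptions over 8 libraries that share groups and days.

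Of 2328 genes that reached 10 CPM and had an SD of at least 1 log2 unit, those most like the mean of Krt8 and Krt18 were Lad1 (ladinin 1, Pearson's r = 0.994), Prss8 (prostasin, an epithelial serine protease, 0.974), Fosl2 (an AP-1 subunit, 0.973), Rab15 (0.963) and Lcp1 (L-plastin, an actin bundler, 0.963). Lad1 was at 1.46 CPM in 2i, 3.46 CPM in 2iJ, 16.5, 31.2 and 20.7 CPM in 2iJ+B-A, 59.6 CPM in the sorted cells and 14.9 and 11.8 CPM in mesoderm. Nearest to Dsp were 6230427J02Rik (0.988), Gas1 (0.987), Phc2 (0.983), Stk39 (0.980) and Fat3 (0.980), and nearest to Cdh3 were Smtnl2 (0.922), Apobec2 (0.865), Ttn (0.854), Lix1 (0.851) and Alpk3 (0.834). The comparisons with 2iJ+B-A share its 3 libraries and are not independent of each other.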

How the data were processed

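Poly-A RNA was sequenced from strand-specific libraries, and the authors aligned trimmed read pairs to NCBIM37 with STAR 2.4.2a (submitters' processing notes). The deposited files give, for every gene, the uncorrected counts of read pairs without regard to strand and on each strand. The annotation release was not given in the sources used here. The study adjusted expression for experiments on separate days, and these counts carry no such adjustment. Reverse-strand counts were used here. Genes that reached 10 counts in 2 or more libraries were fitted in edgeR 4.0.16 (R 4.3.3) over all 8 libraries, with 5 group coefficients, 3 residual degrees of freedom, TMM scaling, the quasi-likelihood test and Benjamini-Hochberg adjustment (threshold 0.05). Alternatives were DESeq2 1.42.0, other scalings, filters, strand counting and references, a slope on the day, and fits without single libraries. The script was tested on simulated data. CPM are shares of a library's gene counts, with 95% Wilson intervals for counting error only. Symbols came from GENCODE vM1 (37205 of 37620 IDs). Copies of coding sequences were sought with blastn 2.17.0+. The 10 genes were named throughout. List genes past the threshold were named by highest mean CPM, up to 4 per list. The genes and lists were chosen with earlier results of these data known. Dab2 and Eppk1 were not analysed here. Of the convertases, not every result is reported here.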

Additional observations from a re-analysis of the deposited data

How the results depend on the processing

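Of 510 recomputed fold changes of the 10 genes, 469 kept their direction and side of the threshold, 24 gained a call, 5 lost one and 12 reversed. Counts of genes differing for 2iJ against 2i were 0 under every alternative run. For 2iJ+B-A against 2iJ they were 0 except with DESeq2 (305) and with 2i and 2iJ pooled (150). For sorted against 2iJ+B-A the count was 919, and it was 1390 without a filter on low counts, 1911 in only the libraries compared, 2697 with DESeq2, 27 with a slope on log2 of the day and 2033 without both mesoderm libraries, an alternative chosen after seeing the data. Leaving out 1 library gave 37 (without 2iJ+B-A day 5) to 2052 (without mesoderm day 4), with 91 without 2iJ+B-A day 2, 117 without day 11 and 1987 without mesoderm day 3. For mesoderm against 2iJ+B-A (4584 genes) leaving out 1 library gave 2019 (2iJ+B-A day 5) to 4538 (mesoderm day 3), with 2666 without 2iJ+B-A day 11. The cause of these changes was not tested. Reversals all concerned uncalled genes. In 2iJ+B-A against 2iJ, Dsp (log2 values) was at -0.11 without day 2, -0.15 without day 5, 0.29 without day 11 and -0.045 with the pooled reference, and Furin ran from -0.20 without day 5 to 0.45 without day 11. In mesoderm against 2iJ+B-A, leaving out 1 library gave Krt8 -0.69 (mesoderm day 3) to 0.27 (2iJ+B-A day 5), with 0.10 without mesoderm day 4. It gave Krt19 -1.08 (mesoderm day 3) to 0.95 (2iJ+B-A day 5), with -0.14 without 2iJ+B-A day 2. It gave Dsc2 -0.50 (2iJ+B-A day 11) to 0.043 (2iJ+B-A day 5), Cdh3 -1.67 (mesoderm day 4) to 0.60 (mesoderm day 3), and Cdcp1 -1.76 (mesoderm day 3) to 0.89 (mesoderm day 4), with -0.23 without 2iJ+B-A day 11. CPM differed by -3.79% to 3.53% with TMM scaling and by -1.54% to 15.6% with unstranded counts. No paired analysis was possible because the labels give the libraries no replicate numbers that link groups. Single libraries of 3 groups and counts of 30 or fewer in some libraries for Cd40, Krt7 and Cdcp1 limit what can be detected.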
